A study of Mus musculus with 3 samples.

Results

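Natural killer (NK) cells that held RNA of both Klrg1 and Cx3cr1 and none of Cd27 were taken from sorted NK cells of mouse lung and blood. They were selected on the counts of these 3 genes, with at least 1 count of Klrg1, at least 1 of Cx3cr1 and 0 of Cd27 in the same cell, and 3577 of 21113 kept cells (16.9%) met this rule. A kept cell had 800 to 5000 detected genes, at most 6% mitochondrial counts and 1 hashtag at 90% or more of its tag counts. The 3577 cells are called double-positive cells below, and the other 17536 kept cells of the same libraries and tissues are the cells they are set against.

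Mouse NK cells leave the bone marrow as CD27-bearing cells and lose CD27 as they mature, while they gain CD11b (Itgam) and, last, the inhibitory lectin receptor KLRG1. CX3CR1, the receptor of the chemokine CX3CL1 that endothelium displays, marks mature NK cells that circulate in blood and the vascular bed of tissues. Mature NK cells store perforin and granzymes for killing, leave tissues through the lipid receptor S1PR5, and depend on the transcription factors T-bet (Tbx21) and ZEB2 for these last steps.

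The cells came from wild-type female C57BL/6 mice aged 9 weeks that were naive or had received 100000 PyMT mammary tumor cells into a vein, and were taken 6 h or 14 days later. The sample labels and methods give this dose, and a figure legend for these data gives a higher one. Live cells bearing NK1.1 and NKp46 were sorted from perfused, enzyme-digested lungs and from lysed blood. Each group had 5 mice, and the hashtags marked tissues and not mice, so the mouse a cell came from is not used here. There was 1 droplet library for each of the 3 time points, and it held lung and blood cells with separate hashtags. Library and time point therefore cannot be told apart, and neither can tissue and the preparation of that tissue. Cells of 1 tissue in 1 library are called a unit, and there were 6 units. No cell of the double-positive group shared its barcode with one in another library, and among all kept cells 16, 11 and 6 barcodes were shared between pairs of libraries.

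Double-positive cells made up a similar part of lung and blood NK cells before and 6 h after tumor cell injection, and a smaller part in lung than in blood at 14 days. They were 647 of 3676 kept cells in naive lung (17.6%, exact 95% confidence interval 16.4 to 18.9) and 730 of 4367 in naive blood (16.7%, 15.6 to 17.9). At 6 h they were 795 of 4680 in lung (17.0%, 15.9 to 18.1) and 467 of 2746 in blood (17.0%, 15.6 to 18.5). At 14 days they were 442 of 3575 in lung (12.4%, 11.3 to 13.5) and 496 of 2069 in blood (24.0%, 22.1 to 25.9), the lowest and the highest share of the 6 units. These intervals cover counting error only, and with 1 library per time point the difference was not tested. Because detection moves with depth, each cell with at least 3000 unique molecular identifiers (UMIs) was also thinned to 3000. The rule then chose 9.61%, 8.45% and 6.05% of cells in naive, 6 h and 14-day lung, and 9.48%, 9.21% and 12.3% in blood, so the 14-day units stayed at both ends of the order, as the plot of shares shows.

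**Figure D1:**
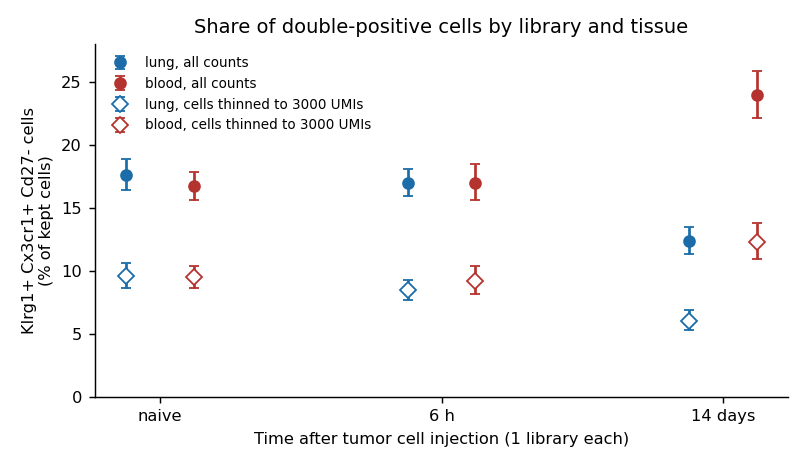
Share of double-positive cells among kept cells (y axis, percent) by library (x axis), in lung (blue) and blood (red), with exact 95% binomial intervals. Filled circles use all counts and open diamonds use cells thinned to 3000 UMIs. At 14 days the share was 12.4% in lung and 24.0% in blood.

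The classes of the other kept cells also had different shares in 14-day lung. Cells with neither Klrg1 nor Cx3cr1 nor Cd27 counts were 38.9% of kept cells there, against 28.7% in naive lung and 19.8% in 14-day blood. Cells with Klrg1 but no Cx3cr1 or Cd27 counts were 17.3% in 14-day lung and 25.4 to 26.7% in the other units. Cells with Cx3cr1 alone were 4.12 to 7.07% over the 6 units.

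The genes of the rule came close to their detection limit in many of the cells it chose. Klrg1 stood at a single count in 20.6 to 33.2% of double-positive cells per unit and Cx3cr1 in 30.2 to 43.3%, with both at 1 count in 406 of 3577 cells. Median counts were 2 or 3 per cell for Klrg1 and 2 for Cx3cr1 in every unit. On the other side of the rule, 353 cells had both genes and a single count of Cd27. The genes also occurred together after thinning, with Cx3cr1 in 25.5 to 32.9% of Klrg1-positive cells and 9.11 to 16.5% of Klrg1-negative cells. RNA free in the droplets was bounded by 1 gene. The B cell gene Ms4a1, at 6.16, 11.8 and 18.4 CPM (counts scaled to the same total in every group of cells) in barcodes with at most 100 counts, limited free RNA to 4.26%, 2.47% and 1.80% of counts in the naive, 6 h and 14-day libraries. At that share, free RNA would place a Klrg1 count in 2.45 to 5.74% of cells and a Cx3cr1 count in 1.14 to 2.40%. Cells with RNA of Cxcr6 and Itga1, genes of tissue-resident lymphocytes, were set beside these values. Among 159 kept cells with counts of both Cxcr6 and Itga1 (median 8716 UMIs), 10.7% had a Cx3cr1 count, 14.5% a Klrg1 count and 1.89% met the rule, against 26.3%, 50.5% and 17.1% of the other 20954 cells (median 6743 UMIs). The 10.7% lies above the share that free RNA would give, and what these cells are was not tested. This pair of genes was chosen after its values were seen.

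The cells carried the RNA of NK cells throughout. All 10 NK markers, among them Ncr1 (NKp46), Klrb1c (NK1.1) and Nkg7, were detected in every unit and summed to 13918 to 16253 CPM in double-positive cells. The 7 markers of terminal NK cells that the rule did not use (Itgam, Zeb2, S1pr5, Gzmb, Prf1, Ly6c2 and Prdm1) were each higher in double-positive than in other cells in all 6 units. Of all 3254 genes with at least 50 CPM on one side in every unit, 19.6% were. None of the 7 markers was at least 1.5-fold higher in all 6 units. Lists of markers of other cell types had sums that differed widely, and the highest sums of the myeloid and of the platelet and red cell lists came from single cells. One 6 h lung cell held 443 of the 448 Lyz2 counts of its unit, which put Lyz2 at 72.0 CPM and the summed myeloid list at 82.9 CPM there, against 3.66 to 17.7 CPM in the other units. One 14-day lung cell held all 1427 Hbb-bs counts, and the platelet and red cell list summed to 693 CPM in that unit and at most 1.45 CPM in the others. Of the B cell list, 3 to 5 of 9 genes were at 0, and Ighm was its most abundant gene at 11.6 to 22.8 CPM. The T cell list summed to 364 to 459 CPM in every unit, with Trbc1 at 202 to 238 CPM, with Cd3e counts in at most 3 cells of a unit. Endothelial, epithelial and tumor markers summed to 51.9 to 65.5 CPM, nearly all from Pecam1. The innate lymphoid type 1 list summed to 76.4 to 138 CPM, led by Rora, against 114 to 347 CPM in the other cells. Median depth was 6239 to 7949.5 UMIs in double-positive cells and 5833 to 7505 in the others.

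Double-positive cells were set against the other kept cells of the same unit on summed counts, as CPM. Because the same cells' counts chose them, these ratios are a description and carry no test. Of 3254 genes with at least 50 CPM on one side in every unit, 7 (0.215%) were at least 1.5-fold higher in all 6 units and 15 (0.461%) at least 1.5-fold lower. With any size of difference, 639 genes (19.6%) were higher and 531 (16.3%) lower in all 6 units, and the median log2 ratio of all 3254 genes was 0.01. The 7 higher genes were Cdc20b, Timp2 (a metalloproteinase inhibitor), Serpinb9b (a serpin), Kcnj8 (a potassium channel subunit), Cma1 (a chymase), Snx10 (a sorting nexin) and Entpd1 (CD39, which breaks down extracellular ATP). Only Cma1 and Snx10 kept that size in every alternative run. Entpd1 lost it in 5, Kcnj8 and Serpinb9b in 2 each, and Cdc20b and Timp2 in 1, without cells that held T, B or myeloid markers. Cdc20b, on chromosome 13 from 113035111 to 113091195 of GRCm38, had the largest median log2 ratio of the 7, at 1.19. Its level in naive, 6 h and 14-day lung was 144, 131 and 105 CPM in double-positive cells and 77.0, 56.3 and 36.9 CPM in the others. In blood it was 166, 146 and 129 CPM against 74.5, 56.7 and 60.4 CPM. Cma1, on chromosome 14 from 55941451 to 55944675, had the widest span of the 7, from 0.85 in 14-day blood to 2.11 in 14-day lung on the log2 scale. It stood between 441 and 511 CPM in double-positive cells of all 6 units, and among the others it ran from 111 CPM in 14-day lung to 266 CPM in naive lung.

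Embigin (Emb), an immunoglobulin-type adhesion molecule, had the smallest ratio of the 15 genes that were at least 1.5-fold lower. It lies on chromosome 13 from 117208536 to 117274415. Its lung levels were 56.5, 50.9 and 13.3 CPM in naive, 6 h and 14-day double-positive cells and 432, 469 and 307 CPM in the others, and in blood 8.95, 8.35 and 4.21 CPM against 80.5, 87.3 and 55.6 CPM. The log2 ratio ran from -2.94 to -4.53, with a median of -3.29. Its level in the other cells of 14-day blood was close to the minimum of 50 CPM, and under 4 of the alternatives it was below that minimum in a unit and so was not among the lower genes, with ratios of -1.84 or below in every unit. Next came Aff3, a nuclear factor (median -1.91), Xcl1, a chemokine that draws XCR1-bearing dendritic cells (-1.83), Ctla2a, a protease inhibitor (-1.81), and the chemokine receptor Ccr2 (-1.73). Fgf13, Cd7, Ly6e, Mef2c and Cmtm7 had medians from -1.02 to -1.51. Mef2c and Cmtm7 were not among the lower genes without cells that held T, B or myeloid markers. The remaining lower genes, Serpina3g, Ctla2b, Zfp512, Lyst and Shisa5, were missing in that setting and in further ones. The ratio of Xcl1 was smallest in 14-day lung, at 119 CPM in double-positive and 971 CPM in other cells. The plot of ratios gives each unit.

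**Figure D2:**
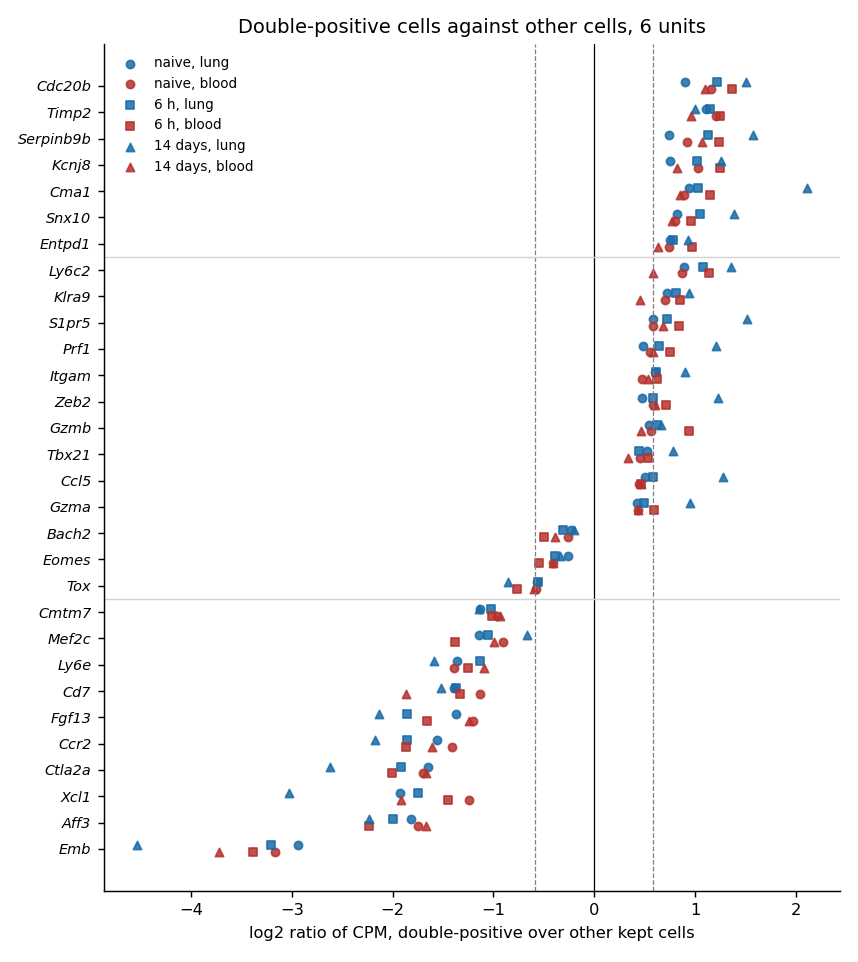
Log2 ratio of CPM in double-positive over other kept cells (x axis) for named genes (rows), in lung (blue) and blood (red) of the 3 libraries. Dashed lines mark 1.5-fold. The upper and lower blocks hold the genes past that size in all 6 units, and the middle block holds genes of the NK maturation and effector lists. Emb ran from -2.94 to -4.53.

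More of the listed transcription factors of late maturation were higher than lower in double-positive cells, and more of those of early stages were lower than higher. These lists were chosen with earlier results known, so the counts carry no test, and they are to be read against the 19.6% of all 3254 genes that were higher and the 16.3% that were lower in all 6 units. Of 12 transcription factors of late NK maturation, 11 reached 50 CPM, and 8 of them were higher in all 6 units and 1, Stat4, was lower, with a list median of 0.21 against 0.01 for all genes. Zeb2 had a median log2 ratio of 0.59, Tbx21 of 0.49, Irf8 of 0.45 and Prdm1 (Blimp-1) of 0.36. Of 13 transcription factors of early stages, 6 reached 50 CPM, and 4 were lower in all 6 units, namely Tox (-0.58), Eomes (-0.40), Bach2 (-0.28) and Gata3 (-0.20). Tcf7, which encodes TCF-1, stayed under 50 CPM in double-positive cells, at 5.38 to 11.3 CPM, and stood at 43.2 to 71.6 CPM in the others.

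Receptors and homing molecules differed in both directions. Of 20 genes on the surface list of mature NK cells that reached 50 CPM, 12 were higher and 5 lower in all 6 units. The shares of all genes were 19.6% and 16.3%. Ly6c2 (median 0.98), the Ly49 receptor gene Klra9 (0.77), S1pr5 (0.70), Itgam (0.61), Spn (CD43, 0.42) and Itgb2 (CD18, 0.40) were among the higher ones. The Ly49 family had no common direction, since Klra3 was higher in all 6 units (0.28) and Klra4 (-0.24) and Klra7 (-0.23) were lower. Reads of these near-identical genes may be split between copies, so their values are uncertain. Of 9 genes on the surface list of less mature NK cells, 6 were lower and 1, the integrin gene Itgb7, was higher (0.45). The lower ones were Emb, Ccr2, Cd7, Ctla2a and the cytokine receptor genes Il2rb and Il18r1. Both surface lists hold genes that earlier results of these data had shown, such as Kcnj8, Entpd1, Cma1 and Emb. They also hold genes of proteins that are not surface molecules, the chymase gene Cma1 and the protease inhibitor gene Ctla2a.

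Among 19 granule and effector genes that reached 50 CPM, 11 were higher and 2 lower in all 6 units, with a list median of 0.24. The counts of this and the next lists stand beside the 19.6% of all genes that were higher and the 16.3% that were lower, with a median of 0.01. The pore former Prf1 (median 0.62), the granzyme genes Gzmb (0.59) and Gzma (0.47) and the chemokine Ccl5 (0.48) had the largest ratios among the higher genes. Lamp1 (-0.26) and Xcl1 were lower. Ifng and the chemokine genes Ccl3 and Ccl4 had no common direction over the units, and in 14-day blood Ccl4 was lower in double-positive cells at a log2 ratio of -0.71. Cytokine receptors also differed in direction, with Il12rb2 (0.37) and Il18rap (0.34) higher and Ifnar1 (-0.31) lower in all 6 units. Of 7 ribosome biogenesis genes 6 were lower, led by Npm1 (-0.36), and ribosomal protein genes took 12.2 to 18.6% of counts in double-positive cells and 13.1 to 23.2% in the others. The inhibitory or costimulatory receptor genes Tnfrsf9 (-0.56) and Tnfrsf18 (-0.37) were lower, and Slamf7 (0.36) was higher. Of 11 glycolysis genes 4 were higher and 3 lower in all 6 units, and of 5 cell cycle genes none kept 1 direction.

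Levels stepped across the classes of kept cells rather than standing out in the double-positive cells alone. Itgam, S1pr5, Zeb2, Prf1, Gzma, Gzmb, Ccl5, Tbx21 and Cma1 were higher in double-positive cells than in cells with Klrg1 only, Cx3cr1 only, neither gene or Cd27, in all 6 units for each class. For Zeb2 the median over units was 864 CPM in Cd27-positive cells, 1147 CPM in cells with none of the 3 genes, 1400 CPM with Klrg1 only, 1402 CPM with Cx3cr1 only and 1683 CPM in double-positive cells. For Ccr2 the order was reversed, with 369.5, 239, 184, 136 and 75.4 CPM. Within the double-positive cells, those with both genes at 2 or more counts were above those with both at 1 count for Zeb2, S1pr5, Cma1 and Gzma in 6 of 6 units, and below them for Emb, Ccr2, Eomes and Ctla2a in 6 of 6. Gzmb gave no such order (higher in 2 of 6 units). Cells just outside the rule, with both genes and a single Cd27 count, had more Emb, Ccr2, Tcf7 and Eomes than double-positive cells in 6 of 6 units, and less Zeb2, S1pr5, Prf1 and Gzmb in 6 of 6. The plot by class gives each unit.

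**Figure D3:**
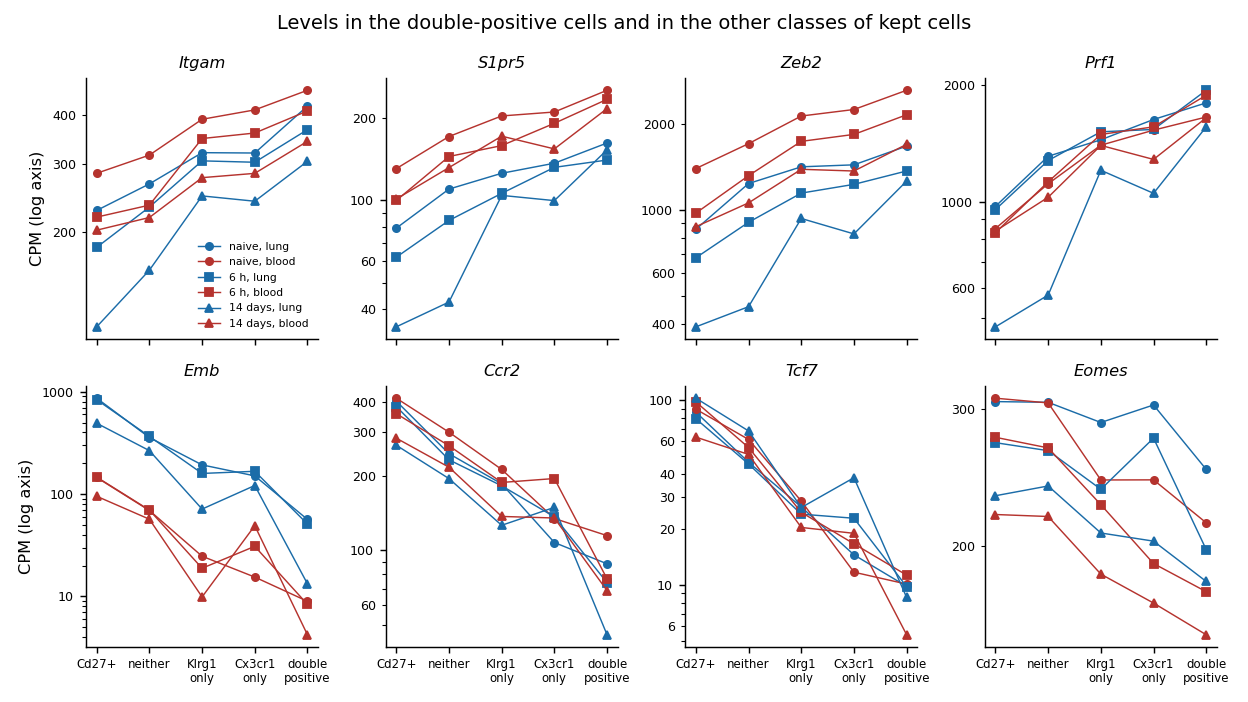
CPM (y axis, log scale) of 8 genes in 5 classes of kept cells (x axis), in lung (blue) and blood (red) of the 3 libraries. Lines join the classes of 1 unit. Itgam, S1pr5, Zeb2 and Prf1 were highest and Emb, Ccr2, Tcf7 and Eomes lowest in the double-positive class in every unit.

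Upstream sequences of the named genes were searched for the letters of a T-box core (AGGTGT, which shares 5 bases with the E-box CAGGTG) and of a RUNX core (ACCACA), on both strands of the 250 bases before each start in RefSeq on GRCm38.p6. Of 32851 promoters of all genes, 11.8% held the first and 14.0% the second. Among 10 promoters of the 7 higher genes 1 held the T-box letters and none the RUNX letters, and among 23 promoters of 13 of the 15 lower genes 4 and 5 did. A match is a description of the letters and not a site of binding. Shown are Cx3cr1, a gene of the rule (chr9:120068297-120068546, minus strand), then Kcnj8, the higher gene that held a match (chr6:142571615-142571864, minus strand). Emb, the lower gene of smallest ratio (chr13:117220323-117220572, plus strand), follows. RefSeq starts can differ from the gene positions given above, which are from GENCODE M21. The Emb stretch lies inside the position given for that gene. Matches are in capitals.
Cx3cr1: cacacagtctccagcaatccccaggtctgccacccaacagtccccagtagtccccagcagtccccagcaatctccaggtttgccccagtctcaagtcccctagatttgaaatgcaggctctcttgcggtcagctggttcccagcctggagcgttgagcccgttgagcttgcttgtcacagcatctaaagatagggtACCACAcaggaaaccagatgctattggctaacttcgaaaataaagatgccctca
Kcnj8: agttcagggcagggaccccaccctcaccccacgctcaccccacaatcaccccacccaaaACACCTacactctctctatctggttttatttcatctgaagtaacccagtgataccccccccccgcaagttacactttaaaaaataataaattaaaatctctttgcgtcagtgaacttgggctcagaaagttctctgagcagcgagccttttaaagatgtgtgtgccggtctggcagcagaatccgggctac
Emb: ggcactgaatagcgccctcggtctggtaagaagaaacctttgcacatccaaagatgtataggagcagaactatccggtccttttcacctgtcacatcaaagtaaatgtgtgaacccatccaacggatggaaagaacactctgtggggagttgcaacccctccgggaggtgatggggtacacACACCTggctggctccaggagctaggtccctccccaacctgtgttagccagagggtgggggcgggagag

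Double-positive cells of lung and blood differed by many genes. Tissue was not used by the rule, and the 6 sums were compared by the quasi-likelihood test of edgeR with library as a block and Benjamini-Hochberg adjustment over 10455 genes. At an adjusted p of 0.05, 1294 genes (12.4%) were higher in lung and 736 (7.04%) lower. With library totals in place of TMM factors the split was 914 higher and 1574 lower, and the median log2 fold of all genes moved from -0.01 to -0.11, so directions of small differences hold only relative to that centre. Without the 6 h library 718 genes were higher and 195 lower, and without the naive library 380 were lower. DESeq2 called 612 higher and 136 lower, and without the library block edgeR called 636 and 210. With at least 2 counts of Klrg1 and of Cx3cr1 4.11% of genes were lower. With cells chosen at 3000 UMIs 8.26% were higher and 3.20% lower, and without cells that held T, B or myeloid markers 7.51% and 3.03%. Lung cells were released by enzymes and blood cells were not, and this cannot be told apart from tissue.

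The 10 largest differences among genes of at least 50 CPM were all higher in lung. Dusp1, a phosphatase of MAP kinases, stood at 210, 251 and 172 CPM in naive, 6 h and 14-day lung and at 12.1, 10.8 and 9.12 CPM in blood (log2 fold 4.38 ± 0.10 SE, edgeR adjusted p = 5.03e-18). Cxcr4, a receptor that retains lymphocytes, had 144, 134 and 137 CPM in lung and 8.17, 9.42 and 18.5 CPM in blood (3.64 ± 0.14, edgeR adjusted p = 2.87e-14). Rgs1, which dampens chemokine receptor signals, had 360, 388 and 394 CPM in lung and 34.4, 41.5 and 40.7 CPM in blood (3.39 ± 0.07, edgeR adjusted p = 1.63e-18). Lung and blood did not overlap for any of the 3 genes, which were picked for the size of this difference. The share of all genes without overlap is not given here. The other 7 of the 10 largest were Abcb1b, Tnfaip3, Litaf, Dgat1, Crem, Nr4a2 and Plcxd2, with log2 folds of 2.71 to 3.54. Of 15 immediate early and heat shock genes tested, 12 rose and 1, Egr1, fell in lung relative to blood, against 12.4% and 7.04% of all genes. The list median was 2.10, against -0.01 for all genes. Egr1 stood at 22.4, 16.7 and 14.1 CPM in lung and 61.8, 42.0 and 10.8 CPM in blood, so its order was turned in the 14-day library.

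Genes higher in blood differed less. The 10 smallest folds among genes of at least 50 CPM ran from -0.75 to -1.11, and they were AI467606, Bcl2l1 (Bcl-xL, which holds back apoptosis), Rcsd1, Slc14a1, Trim14, Rnf167, Sh2d3c, Aim2 (a sensor of cytosolic DNA), Arl4d and Slc44a2. Bcl2l1 had 41.4, 40.3 and 43.6 CPM in lung and 84.6, 98.8 and 79.8 CPM in blood. Genes of mature NK cells were divided between the tissues. S1pr5 stood at 162, 140 and 153 CPM in lung and 253, 234 and 217 CPM in blood (log2 fold -0.53 ± 0.07 SE, edgeR adjusted p = 2.58e-06). Zeb2 (-0.48) and Ikzf3 (-0.68) were also lower in lung, and Irf8 (0.76), Stat4 (0.73) and Bhlhe40 (1.69) were higher. Of 12 late transcription factors tested, 7 rose and 2 fell in lung, and of 11 early ones 6 rose and 1 fell, against 12.4% and 7.04% of all genes. Of 23 genes tested on the mature surface list, 4 rose and 6 fell, and of 21 on the list of less mature cells 8 rose and 3 fell. The plot of lung and blood levels shows the 20 named genes.

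**Figure D4:**
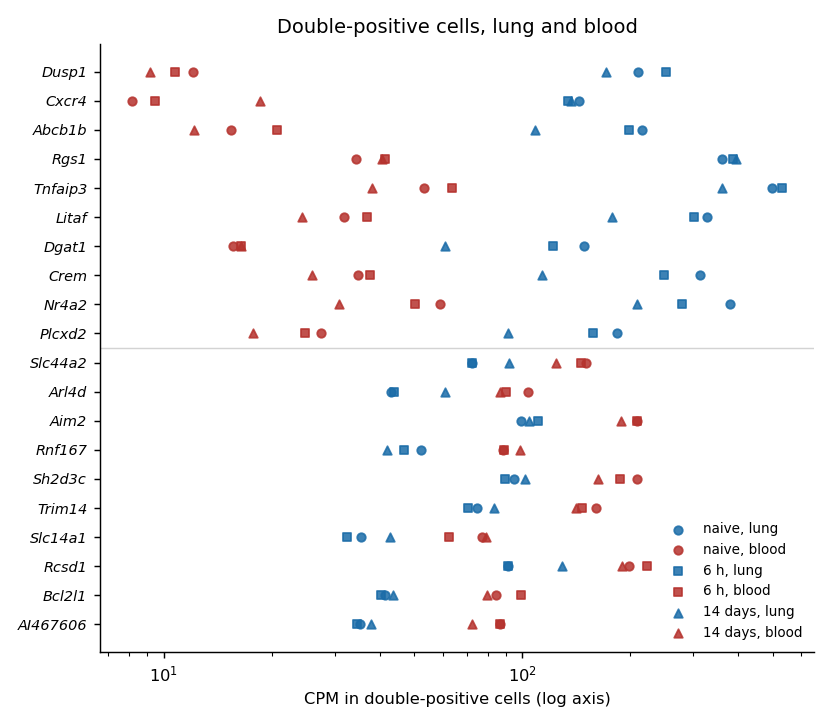
CPM in double-positive cells (x axis, log scale) of the 20 named genes of the tissue comparison, 10 higher in lung above the line and 10 lower below it, in lung (blue) and blood (red) of the 3 libraries. For each of the 20 genes all lung values lie on one side of all blood values, as for Dusp1 at 172 to 251 CPM in lung and 9.12 to 12.1 CPM in blood. The genes were picked for the size of this difference in the same sums, so their separation is not a further result.

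Counts in other lists are set beside the 12.4% of all genes that were higher in lung and the 7.04% that were lower. Of 16 cytokine receptor and signalling genes tested, 12 rose and 1 fell in lung. Il12rb2, a chain of the interleukin-12 receptor, stood at 1576, 1443 and 723 CPM in lung and 448, 412 and 344 CPM in blood (log2 fold 1.67 ± 0.09 SE, edgeR adjusted p = 5.61e-12). Stat3 and Ifngr1 had log2 folds of 1.72 and 1.00. Of 21 effector genes tested, 9 rose and 2 fell, with Ifng at 0.94, Serpinb9 at 0.88 and Fasl at 0.66, and Xcl1 at -0.58. The order of Xcl1 was turned in the 14-day library, with 119 CPM in lung and 114 CPM in blood. Of 13 tissue residency and TGF-beta response genes, 8 rose and 1 fell. The TGF-beta target Pmepa1 had 11.7, 21.4 and 22.6 CPM in lung and 1.56, 7.81 and 2.34 CPM in blood (2.40 ± 0.27, edgeR adjusted p = 6.95e-07). Itgae (CD103), the gene that fell, was at 3.37 to 10.1 CPM over the 6 units. Of 12 interferon-stimulated genes 4 rose and none fell, and of 16 ribosome biogenesis genes 2 rose, which is near the share of all genes.

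The tissue difference of double-positive cells was then compared with that of the other kept cells in 1 model of 12 sums. No gene of 11705 (0.0%) passed the threshold for a difference between these differences in edgeR. At an unadjusted p under 0.05 there were 623 genes, and DESeq2 called 2. Without the 14-day library edgeR called 19, and without either of the others 0. The smallest edgeR adjusted p was 0.0566, shared by Lyz2, whose counts in double-positive cells came almost wholly from 1 cell, and Mideas (-0.72 ± 0.10). Folds stood near each other for the genes of largest difference, such as 4.38 in double-positive and 4.48 in other cells for Dusp1, 3.39 and 3.09 for Rgs1, and 2.56 and 2.54 for Emb. Xcl1, with -0.58 in double-positive and 0.13 in other cells, had an interaction of -0.69 that was not past the threshold. On simulated data the same test recovered 78% of 200 genes with a 2-fold interaction, with 12 false calls of 168.

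At 14 days several markers of terminal NK cells stood closer to their naive levels in double-positive lung cells than in the sum of the other lung NK cells, and effector genes were divided. With 1 library per time point these are ratios of 2 libraries, with exact intervals for counting error only and no test. The rule was applied anew in each library, so 14-day cells without Klrg1 or Cx3cr1 counts stood among the other cells. Here and in the next paragraphs, the contrast between the groups cannot be told apart from that choice. In the other lung cells the innate lymphoid type 1 list summed to 183 CPM in naive and 347 CPM in 14-day lung. In double-positive cells it summed to 138 and 120 CPM, and whether this bears on the contrast was not tested. Of the 7 terminal NK markers not used by the rule, none was 1.5-fold or more lower in double-positive lung cells and 4 were in the other lung cells, with list medians of -0.08 and -0.76. Itgam (-0.47) and Zeb2 (-0.41) were nevertheless below naive in double-positive lung cells, where the others had -0.76 and -1.16. Of 12 late transcription factors, 3 were at least 1.5-fold lower in double-positive and 5 in other lung cells, with medians of -0.27 and -0.42. Of all genes, 434 of 3881 (11.2%) were lower in double-positive and 566 of 3950 (14.3%) in other lung cells, with medians of -0.21 and -0.27. S1pr5 had a log2 ratio of 14 days over naive of -0.08 (-0.25 to 0.08) in double-positive lung cells and -1.01 (-1.11 to -0.91) in the others. Prf1 had -0.21 (-0.26 to -0.16) and -0.92 (-0.95 to -0.90). Cma1 had -0.09 (-0.18 to 0.00) and -1.26 (-1.33 to -1.19). In blood the ratios were -0.22 and -0.32 for S1pr5, -0.01 and -0.04 for Prf1, -0.12 and -0.09 for Cma1, and -0.63 and -0.65 for Zeb2. The 7 terminal markers had blood medians of -0.21 in double-positive and -0.04 in other cells. Ccl5 went from 17331 to 24760 CPM in double-positive lung cells (0.51) and had -0.26 in the other lung cells, and in blood it had 0.58 and 0.56. Ccl3 also stood further from naive in double-positive lung cells (0.61) than in the others (0.20). In blood its ratio had the other sign, at -0.98 in double-positive and -0.23 in other cells. Ccl4 had -0.06 and -0.24 in lung, and -0.87 and 0.04 in blood. Of 19 effector genes, 2 were at least 1.5-fold higher and 2 lower in double-positive lung cells (median 0.15). In the other lung cells 3 were higher and 4 lower (median -0.24). Of all genes, 2.19% were at least 1.5-fold higher in double-positive and 4.84% in other lung cells. In blood, of 20 effector genes, none was higher and 4 were lower in double-positive cells, and 1 was higher and none lower in the others. Of all genes in blood, 0.768% were higher and 4.84% lower in double-positive cells, and 24 and 142 of 3917 in the others.

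The classes of other lung cells had different ratios. For Ccl5, Prf1 and S1pr5, cells with Klrg1 only had 0.47, -0.26 and -0.27, and cells with Cx3cr1 only had 0.17, -0.63 and -0.45. The lowest ratios were those of cells with none of the 3 genes, at -0.41, -1.19 and -1.37, and of Cd27-positive cells, at -0.68, -1.03 and -1.20. Double-positive cells with a single Cd27 count had 0.37, -0.33 and -0.74. For Itgam, cells with Klrg1 only (-0.37) and with Cx3cr1 only (-0.41) were closer to naive than double-positive cells (-0.47). These ratios of classes were added after the values were seen and have no test.

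No listed tissue residency or TGF-beta gene that reached 50 CPM was at least 1.5-fold higher in double-positive lung cells at 14 days than in naive ones. Of 9 listed genes with enough counts, none was at least 1.5-fold higher and 3 were lower, with a median of -0.38. In the other lung cells 5 of 12 were higher and 2 lower, with a median of 0.30. The minimum of 50 CPM was applied to each side by itself, so these counts and medians cover different genes. Pmepa1 and Itga1 reached it only in the other lung cells and only at 14 days, so the contrast of the counts is partly set by the minimum. Of all genes, 2.19% were higher and 11.2% lower in double-positive lung cells (median -0.21), and 4.84% were higher and 14.3% lower in the others (median -0.27). Tgfb1 had -0.19 in double-positive and 1.23 in other cells, Smad7 -0.30 and 0.83, and Ski -0.20 and 0.88. Tgfbr1, a receptor chain, had -0.66 and -0.63, and Rgs2 -1.22 and -1.11. Pmepa1, which stayed under 50 CPM in double-positive cells, went from 11.7 to 22.6 CPM there (0.96) and had 3.08 in the others, and Itga1 had 0.62 and 2.42.

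**Figure D5:**
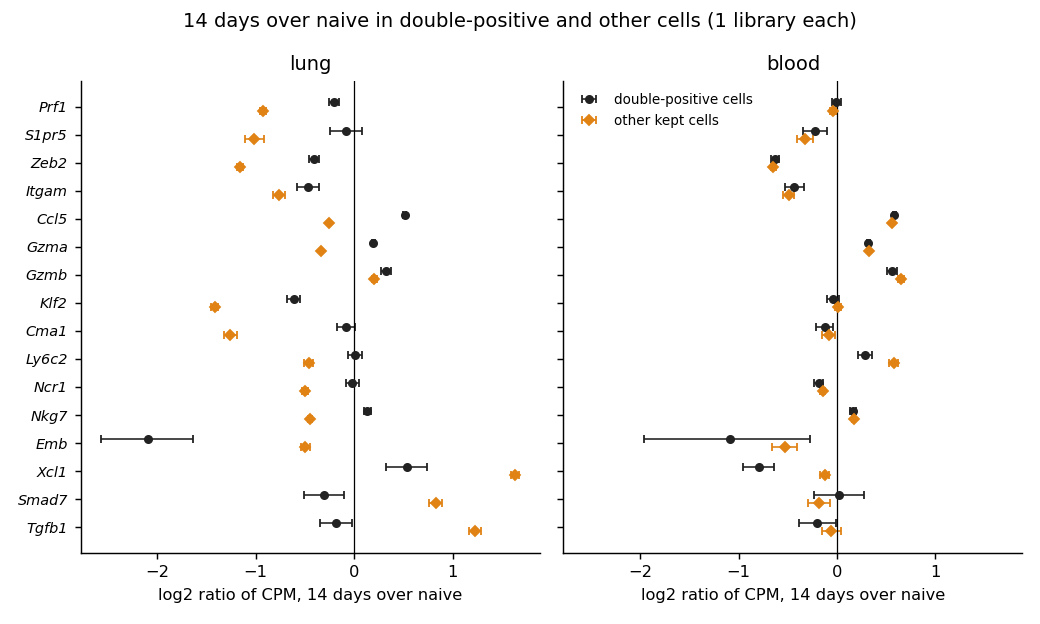
Log2 ratio of CPM at 14 days over naive (x axis) for 16 genes in double-positive cells (black circles) and other kept cells (orange diamonds) of lung (left) and blood (right), with exact 95% intervals for counting error. The genes were picked from the lists after their values were seen. In lung S1pr5 stood at -0.08 and -1.01, and in blood at -0.22 and -0.32.

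The gap between double-positive and other cells was accordingly widest in 14-day lung. Of the 639 genes higher in all 6 units, 395 (61.8%) had their largest ratio there, and of the 531 lower genes 214 (40.3%) had their smallest. The median log2 ratio of the higher genes was 0.27 in 14-day lung and 0.20 in 6 h blood. For the lower genes the medians were closer, at -0.24 and -0.23. The unit of 14-day lung also held the fewest double-positive cells, 442. Itga1 (CD49a), a gene of tissue-resident cells, was at 78.0 CPM in the other cells of 14-day lung and 22.1 CPM in double-positive cells, against 14.6 and 14.4 CPM in naive lung. After thinning, both Itga1 and Pmepa1 were detected in 3 of 440 double-positive cells of 14-day lung (0.682%, 0.141 to 1.98) and in 7.81% of 3097 others, and in 2.26% and 19.0% of cells without thinning.

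Over all genes the 14-day cells differed from naive ones more than the 6 h cells did. In double-positive lung cells 85 of 3881 genes (2.19%) were at least 1.5-fold higher at 14 days and 434 (11.2%) at least 1.5-fold lower. In blood 30 of 3904 (0.768%) were higher and 189 (4.84%) lower. The median log2 ratio of all genes was -0.21 in lung and -0.20 in blood, beside ribosomal protein genes that took 12.2% of counts in naive and 18.6% in 14-day lung, and 12.4% and 17.4% in blood. Relative to that median the split turned, with 224 genes higher and 144 lower in lung and 133 and 38 in blood, so the direction of small differences depends on the centre. The other cells had a like median in lung, -0.27.

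The named extremes of 14-day lung were far past the median. Besides the haemoglobin genes of the single cell described above, H2ac24, a histone gene, had the largest ratio (2.18, 1.82 to 2.56), from 18.1 to 81.8 CPM. The smallest were Emb (-2.09, -2.57 to -1.64), Cnnm2 (-2.04), Rab27b (-1.89), Arhgap6 (-1.84) and Alcam (-1.64). Without the cells that held markers of other types, Pim2, a survival kinase (1.64), Khdc1a (1.61), Ly6e (1.39) and the cold-inducible Rbm3 (1.12) followed H2ac24. In the other lung cells, with the same kind of cells left out, H2ac24 had 1.58, Pim2 1.28, Ly6e 1.62 and Rbm3 1.14, and Khdc1a had 0.35. Cnnm2 had -2.35 there, Rab27b -1.94, Arhgap6 -1.40, Alcam -1.10 and Emb -0.53. Differences between double-positive and other cells were not tested. In blood the largest ratios were those of Ddit4 (1.18), Pim2 (1.09), Cirbp (1.01), Klra5 (1.01) and Rpl35 (0.97). Klra5, a Ly49 receptor gene, went from 35.0 to 70.4 CPM in double-positive blood cells and had a ratio of -0.10 in the others. The smallest in blood were the immediate early genes Egr1 (-2.52), Nr4a3 (-1.93) and Nr4a1 (-1.50), then Alcam (-1.15) and Fgf13 (-1.11). In the other blood cells, without those that held markers of other types, Ddit4 had 0.84, Pim2 1.07, Cirbp 0.85 and Rpl35 0.88. Egr1 had -0.87 there, Nr4a3 -0.85, Nr4a1 -0.38, Alcam -0.59 and Fgf13 -1.07.

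At 6 h after injection fewer genes were past 1.5-fold than at 14 days. In double-positive lung cells 13 genes of 3881 (0.335%) were at least 1.5-fold higher than in naive ones and 10 (0.258%) lower, and in blood 9 of 3957 (0.227%) and 14 (0.354%). With each ratio centred on the all-gene median, 16 were higher and 4 lower in lung and 10 and 8 in blood, so the split in blood turned. Leaving aside Lyz2 of the single cell, Serpina3g, an interferon-inducible serpin, had the largest ratio in lung, from 28.8 to 79.2 CPM (1.46, 1.17 to 1.75), and in blood, from 42.4 to 85.9 CPM (1.02, 0.77 to 1.27). Ly6e was higher in both tissues (1.08 and 0.86), as was Khdc1a (0.87 and 0.78). Xcl1 was higher in lung (1.05) and the signalling genes Pim2 (0.92) and Socs1 (0.82) in blood. The other cells had ratios of 1.16 and 0.86 for Serpina3g and 0.85 and 0.72 for Ly6e. The smallest ratios in lung were those of Arhgap6 (-0.85), Alcam (-0.79), Fgf13 (-0.78), Tmcc3 (-0.65) and Dcaf10 (-0.64). In blood they were Cmah (-1.01), which encodes an enzyme of sialic acid synthesis, Angpt1 (-0.80), Aff3 (-0.75), Gpr160 (-0.68) and Stx17 (-0.68). Medians over the effector list were 0.10 in lung and 0.13 in blood, against -0.06 and -0.04 for all genes.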

How the data were processed

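Single-cell RNA sequencing of sorted lung and blood NK cells was analysed from 3 libraries, 1 per time point. The authors deposited raw UMI counts per gene and hashtag for all barcodes, aligned with Cell Ranger to GRCm38 and not normalized. The protocol names version 7.0.1 and the file headers 7.1.0, and the submitters' processing notes name Seurat 5.0. Lung cells were those with tag B0304 and blood cells those with B0306, which follows the order of tags and tissues in the methods. Barcodes with no tag at 90% (342, 158 and 141) were left out, and doublets within a tissue were not removed. Summed counts per unit of double-positive cells were 3620494 to 6224237. Members, gene lists and tests were chosen with earlier results of these data known.

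Ratios are log2 of CPM with exact conditional 95% intervals, and a gene at 0 was set to 3 counts. Genes are named from 22 lists (290 of 291 symbols found) and by size: the 10 largest and 10 smallest among genes at least 1.5-fold different in all units, or past the threshold between tissues with at least 50 CPM, and 5 each for the time points. Counts were tested with edgeR 4.0.16 (quasi-likelihood, filterByExpr, TMM) in R 4.3.3, with 2 residual degrees of freedom for lung against blood, and with DESeq2 1.42.0 as an alternative. Tests compare sums over the cells of 5 mice per group, so their spread is that between libraries and not between mice. On simulated data with 200 genes changed 2-fold, edgeR recovered 100% between tissues with 11 false calls of 211, and 94.7% of ratio intervals held the true value. For edgeR the changed genes were above 50 CPM and the spread was 1 assumed value, so the real data may give lower recovery. Gene positions are from GENCODE M21 on GRCm38. Python 3.11.15, numpy 2.4.6 and scipy 1.17.1 were used. Alternatives changed the cell filter, the rule, the comparison cells, totals, depth, free RNA and libraries. An item that the lists held is not reported here.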

Additional observations from a re-analysis of the deposited data

Results flagged for a closer look

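The share of double-positive cells was set apart because it went in opposite directions in the tissues. From naive to 14 days it fell by 5.24 percentage points in lung and was 7.26 percentage points higher in blood. The difference was not tested, since there was 1 library per time point.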

How the results depend on the processing

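The share of double-positive cells moved with the rule. With at least 2 counts of both genes it was 6.69%, 7.97%, 8.06%, 8.96%, 6.04% and 13.6% in naive lung, naive blood, 6 h lung, 6 h blood, 14-day lung and 14-day blood. In the same order it was 19.3%, 18.9%, 19.1%, 19.6%, 13.9% and 27.8% with no condition on Cd27, 9.61%, 9.48%, 8.45%, 9.21%, 6.05% and 12.3% at 3000 UMIs, and 20.6%, 22.4%, 21.6%, 25.7%, 18.9% and 27.2% without cells that held T, B or myeloid markers. NK cells hold Trbc1, Trbc2 and Ighm RNA, so that last filter removed most cells, and a filter on defining markers alone was chosen after seeing the data. 14-day lung had the lowest and 14-day blood the highest share under each of these.

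Genes at least 1.5-fold higher in double-positive cells in all units numbered 7, and 3 with the marker filter, 18 with a floor of 10 CPM and 8 to 12 with 1 library left out. Entpd1 was under 1.5-fold in a unit in 5 settings, with a smallest log2 ratio of 0.13 with the marker filter. With that filter Cdc20b (0.45), Timp2 (0.47) and Kcnj8 (0.48) were also under 1.5-fold in a unit, as did Kcnj8 against cells without Cd27 (0.45) and Serpinb9b with at least 2 counts (0.56) and at 3000 UMIs (0.55). Emb was not among the lower genes at 3000 UMIs, without the highest 5% of UMIs, with the marker filter and against cells without Cd27, because its level was then 27.8 to 48.1 CPM in a unit and so under the minimum for testing. Lower genes numbered 15, and 7 with the marker filter, 9 against cells without Cd27, 48 at 10 CPM, 24 with totals free of mitochondrial and ribosomal protein genes and 15 to 22 with 1 library left out. Between tissues 1294 genes (12.4% of those tested) were higher in lung, and 784 (8.26%) with cells chosen at 3000 UMIs, 657 (7.51%) with the marker filter, 612 (5.86%) in DESeq2 and 718 to 1485 (7.01 to 14.2%) with 1 library left out. The lower genes, 736 or 7.04%, became 4.11% with at least 2 counts, 3.20% at 3000 UMIs, 3.03% with the marker filter, 1.30% in DESeq2, 15.1% without TMM and 1.90 to 8.76% (195 to 914) with 1 library left out. Without the replicate block, which pairs lung and blood of 1 library, 6.24% were higher and 2.06% lower (636 and 210). For the interaction, the 0 genes became 1 with at least 2 counts, 6 with no condition on Cd27, 6 at 3000 UMIs, 1 without the highest 5% of UMIs, 1 with the marker filter, 105 without a filter on low counts, 2 in DESeq2 and 0 to 19 with 1 library left out.

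At 14 days in lung, higher genes numbered 247 and lower genes 967 at 10 CPM, and lower genes 273 without mitochondrial and ribosomal totals. In blood, higher genes numbered 53 with at least 2 counts, 55 at 3000 UMIs, 70 with the marker filter and 135 at 10 CPM, and lower genes 302, 355, 334 and 532 in those settings and 85 without mitochondrial and ribosomal totals. At 6 h in lung, higher genes numbered 22 with at least 2 counts, 29 with the marker filter and 94 at 10 CPM, and lower genes 31, 66 and 124, with 6 for no condition on Cd27 and 30 at 3000 UMIs. In blood at 6 h, higher genes numbered 28, 23, 44 and 101 and lower genes 61, 51, 54 and 153 with at least 2 counts, at 3000 UMIs, with the marker filter and at 10 CPM. Lyz2 at 6 h in lung reversed from 7.30 to -0.80 with at least 2 counts and -0.50 with the marker filter, since 1 cell held its counts. The cause of the other changes was not tested. Fewer cells or higher floors also change which genes are tested.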
